A study of Caenorhabditis elegans with 36 samples.

Results

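Genes of the epidermal nlp and cnc families encode small secreted antimicrobial peptides of the nematode skin, and 9 of them were followed over 12 groups of Caenorhabditis elegans larvae: nlp-27, nlp-28, nlp-29, nlp-30, nlp-31, nlp-33, nlp-34, cnc-2 and cnc-4. A probe set, the group of array probes that reads one transcript, was taken where its annotated symbol was among these. This gave 8 probe sets of 22548, one for each gene except nlp-34, which is named only. All 9 genes lie on chromosome V by RefSeq's gene table. There nlp-34, nlp-31, nlp-30, nlp-29, nlp-28 and nlp-27 are neighbours in a row, cnc-4 and cnc-2 flank cnc-3, and nlp-33 lies elsewhere. The array marks 7 of the 8 probe sets as shared, meaning that some of their probes match further transcripts, so signal of related genes may be mixed. Only cnc-4 has an unshared probe set.

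Total RNA of synchronized larvae of the first stage (L1) was hybridized to 36 single-colour Affymetrix arrays. Larvae of 3 mutants, daf-2, daf-2;daf-16 (called the double mutant below) and daf-16, and of the wild type N2 were exposed to ultraviolet light (UV), starved or left untreated. Each group had 3 arrays, except starved daf-16 with 2 and the starved double mutant with 4. The product of daf-2 is a receptor for insulin-like peptides, and that of daf-16 is a FoxO transcription factor whose entry into the nucleus the receptor limits. The protocol text, the same for every array, has larvae fed for 4 h and harvested 6 h after UV. It does not give the alleles, the UV dose or how the starved larvae were handled. The labels do not say whether a group's arrays come from different cultures. The p-values therefore cover only the spread among the arrays at hand, which may be technical, and their small number limits precision.

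These peptides belong to the worm's barrier defence. Epidermal cells release them when the fungus Drechmeria coniospora grows through the cuticle or when the skin is wounded. For nlp-29, the best studied, the damage signal is known to run from the receptor DCAR-1 through the G protein subunit GPA-12 and protein kinase C (TPA-1) to TIR-1, the p38 kinase PMK-1 and, with the transporter SNF-12, the STAT-like factor STA-2. cnc-2 is known to respond to infection through a different route, the TGF-beta-like ligand DBL-1 and the Smad protein SMA-3. Loss of the furrow collagens of the cuticle is also known to raise nlp-29. Values below are log2 signals as deposited, so a difference of 1 is a 2-fold change of signal. Differences are log2 fold changes ± standard error from limma, and "called" means a Benjamini-Hochberg adjusted p under 0.05 over all 22548 probe sets.

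Before the comparisons, the samples were checked. A weak daf-16 probe set averaged 3.43 to 3.72 over the groups of the double mutant and daf-16, against 4.03 to 4.59 over those of daf-2 and N2, while 2 brighter daf-16 probe sets read higher in untreated daf-16 than in untreated N2. The daf-2 probe sets differed little between strains, and with unknown alleles they check nothing. The 8 epidermal markers (lin-26, elt-1, elt-3, ajm-1, che-14, dpy-7, mup-4 and vab-10) averaged 8.18 to 9.53 on single arrays, so epidermal RNA was measured in every group. Their mean holds opposite changes, with 3 of 8 called as higher and 4 as lower in starved N2. There dpy-7, also a furrow collagen gene, changed by -6.67 ± 0.31, che-14 by -3.50 ± 0.35 and mup-4 by 3.73 ± 0.24. Genes of the molting cycle averaged 8.43 to 8.92 on N2 arrays after UV and 5.21 to 5.33 on starved N2 arrays, against 10.16 to 10.28 on untreated N2 arrays. Their part in the differences between treatments was not tested. Replicate 3 of daf-16 after UV, replicate 1 of the untreated double mutant and replicate 4 of the starved double mutant stood apart from the other arrays of their groups. Without these 3 arrays together, no member's fold change in the comparisons that hold them moved by more than 0.23. The count of called members then was 5 in place of 7 for UV in the double mutant, and it was 3 in place of 1 for the untreated double mutant against N2. It was 2 in place of 1 for the starvation response of daf-2 against that of the double mutant, and 5 in place of 4 for these strains starved. In the other 6 comparisons that hold these arrays the count was the same. The largest shift of the median probe set between groups was 0.054.

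The probe sets of nlp-33 and nlp-31 were the brightest of the 8, with means over the 36 arrays of 9.0 and 8.75 that exceeded 88.1% and 85.9% of all probe sets. nlp-27, nlp-29, nlp-28, nlp-30 and cnc-4 lay between 7.91 and 6.67, and cnc-2 was the dimmest at 4.86, above 35.9% of probe sets. Since probe sets differ in their response, these levels rank no gene above another. Group means of a member spanned 1.95 to 2.50 for the 6 nlp genes, 2.00 for cnc-4 and 0.95 for cnc-2.

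The order of the 12 groups differed between members. The means of nlp-27, nlp-28 and nlp-29 were highest in daf-2 after UV (8.91 ± 0.10, 8.90 ± 0.06 and 8.90 ± 0.16, SD, n = 3). nlp-27 was lowest in untreated N2 (6.95 ± 0.18, SD, n = 3). nlp-28 and nlp-29 were lowest in the starved double mutant (6.61 ± 0.26 and 6.62 ± 0.20, SD, n = 4) and starved daf-16 (6.63 ± 0.53 and 6.48 ± 0.01, SD, n = 2). For nlp-30, nlp-31 and nlp-33 the 4 starved groups filled the lowest 4 places, and the gap to the lowest of the other groups exceeded the sum of both groups' SDs. For cnc-2 and cnc-4 the 4 UV groups filled the highest 4 places, and the gap to the next group lay within the larger of the 2 SDs. Over the 8 orders, neighbouring groups differed by no more than the larger of their SDs in 60 of 88 pairs, and by more than the sum of their SDs in 14. None of these 14 was of nlp-27, cnc-2 or cnc-4. The plot of signal on every array shows these orders.

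**Figure D1:**
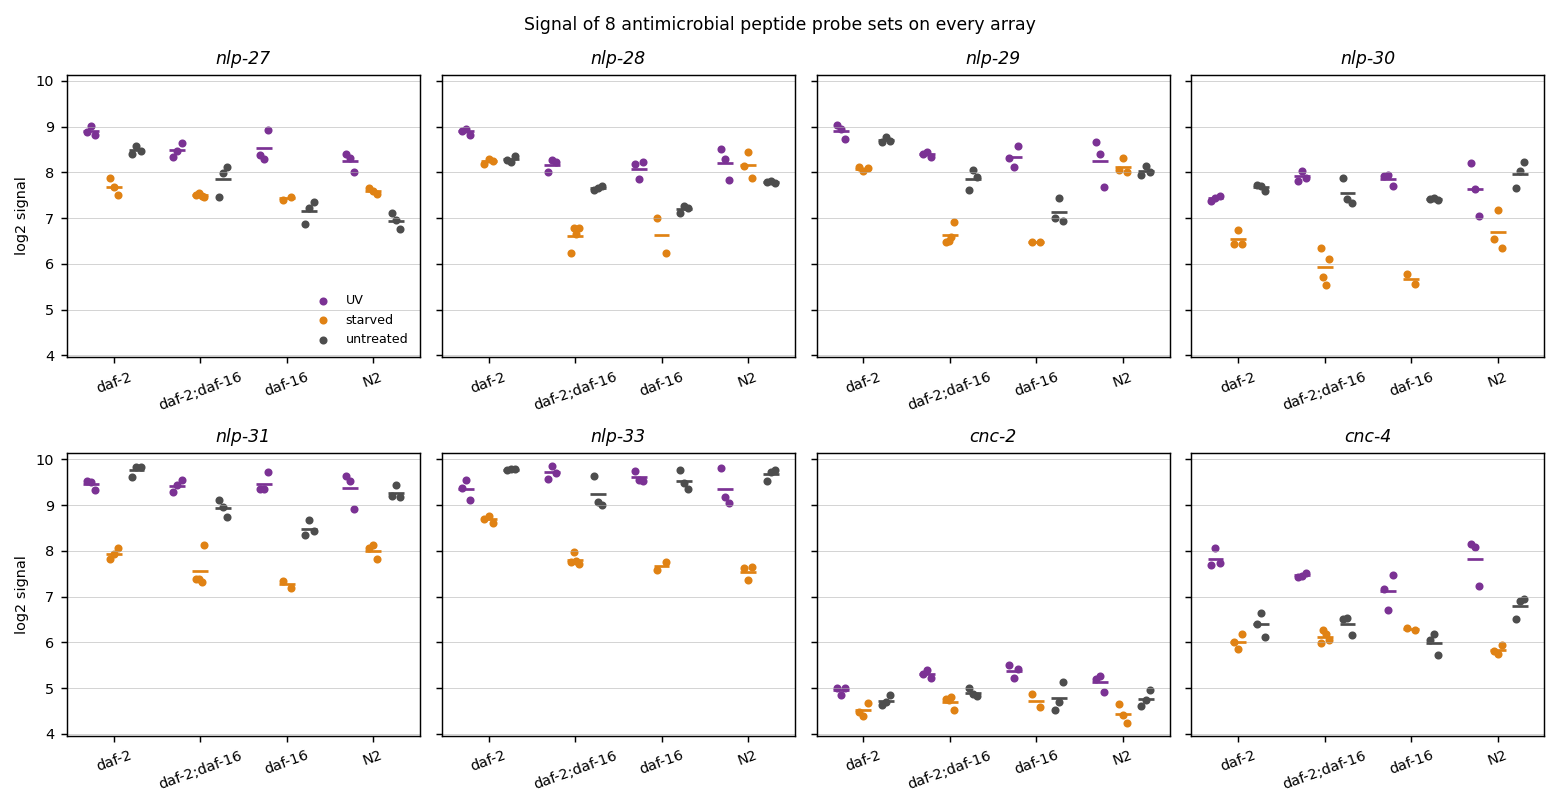
Log2 signal of each member probe set on every array (points) with group means (bars), by strain along the x axis and by treatment in colour. The 4 starved groups are the lowest for nlp-30, nlp-31 and nlp-33, the 4 UV groups are the highest for cnc-2 and cnc-4, and untreated N2 is the lowest group for nlp-27.

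After UV, wild-type larvae carried more transcript of nlp-27 and of cnc-4, by 2.45-fold and 2.05-fold. nlp-28 and cnc-2 also rose, by 1.33-fold and 1.29-fold, and nlp-29, nlp-30, nlp-31 and nlp-33 were not called. Thus 4 of 8 probe sets rose and 0 fell, while the fit called 28.8% of all probe sets, 13.6% as higher and 15.2% as lower. The median change was 0.29 over the 8 and 0.034 over all probe sets. UV and untreated arrays did not overlap for 3 of 8 members, against 39.2% of all probe sets. Whole larvae were measured, so a change in RNA per cell and in the number of cells of a type cannot be told apart. On the N2 arrays after UV the epidermal markers averaged 8.98 to 9.12, against 9.17 to 9.20 untreated, with 3 of 8 called as higher and 3 as lower. Neuronal markers were lower for 4 of 6, with 7.67 to 7.88 after UV, against 8.28 to 8.34 untreated, and pharyngeal markers higher for 3 of 4, intestinal for 2 of 6 and germ line for 1 of 4. The difference between the 3′ and 5′ Gapdh control probe sets, a measure of RNA integrity, was 0.47 to 0.84 after UV, against 0.73 to 0.91 untreated. Their part in the member differences was not tested.

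nlp-27, at the end of the nlp-29 cluster, read 8.40, 8.31 and 8.02 in N2 after UV, against 7.12, 6.96 and 6.77 in untreated N2, a difference of 1.29 ± 0.15 (adjusted p = 2.7e-08). cnc-4, a caenacin, read 8.15, 8.08 and 7.23 after UV, against 6.51, 6.90 and 6.94 untreated (1.04 ± 0.19, adjusted p = 4.7e-05). For both genes every UV array lay above every untreated one. nlp-28 read 8.51, 8.29 and 7.83 after UV, against 7.80, 7.81 and 7.78 untreated (0.41 ± 0.16, adjusted p = 4.8e-02), so its 3 untreated arrays were nearly equal and UV replicate 3 lay just above them. cnc-2, the gene of the DBL-1 route, read 5.20, 5.26 and 4.92 after UV, against 4.61, 4.73 and 4.95 untreated (0.37 ± 0.13, adjusted p = 3.9e-02). Its groups overlapped, as UV replicate 3 lay below the highest untreated array.

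nlp-29, the usual reporter of skin damage, read 8.67, 8.40 and 7.68 in N2 after UV, against 7.94, 8.14 and 8.0 untreated (0.22 ± 0.16, adjusted p = 3.4e-01). Its UV arrays thus lay on both sides of the untreated ones, with replicate 3 low. The antifungal peptide gene nlp-31 read 9.64, 9.53 and 8.92 after UV, against 9.20, 9.44 and 9.17 untreated (0.09 ± 0.17, adjusted p = 7.4e-01). nlp-30 read 8.21, 7.63 and 7.05 after UV, against 7.65, 8.03 and 8.22 untreated (-0.34 ± 0.21, adjusted p = 2.5e-01). nlp-33, outside the cluster, read 9.81, 9.18 and 9.04 after UV, against 9.52, 9.73 and 9.77 untreated (-0.33 ± 0.15, adjusted p = 1.0e-01). Replicate 3 was the lowest of the 3 UV arrays for each of the 8 members. Without it nlp-29 was called as higher (0.51, adjusted p = 8.5e-03). Without UV replicate 1, nlp-30 and nlp-33 were called as lower (-0.63 and -0.57). nlp-33 was also called as lower with array weights (-0.44, adjusted p 5.5e-03).

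The calls of nlp-27 and cnc-4 in N2 held in every alternative that tested them. That of nlp-28 was lost without N2 UV replicate 1 or 2 or N2 untreated replicate 1, 2 or 3 (0.27 to 0.42) and with median centring or no intensity trend (0.40 to 0.41, adjusted p 6.8e-02 and 5.2e-02). That of cnc-2 was lost without N2 UV replicate 1 or 2 or N2 untreated replicate 1 or 2 (0.29 to 0.35) and with quantile normalization or a fit of only the groups compared (0.32 to 0.37, adjusted p 6.0e-02 and 7.7e-02).

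In daf-16 larvae UV raised 6 of 8 probe sets and lowered 0, against 19.0% of all probe sets, 11.3% as higher and 7.76% as lower. Of the 3 cluster genes that were not called in N2, nlp-29 and nlp-31 rose in daf-16, by 2.29-fold and 1.98-fold. nlp-27, nlp-28, cnc-4 and cnc-2 rose by 2.61, 1.85, 2.19 and 1.51-fold. The median change was 0.93 over the 8 and -0.017 over all probe sets, and groups did not overlap for 7 of 8 members, against 31.8% of all probe sets.

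nlp-29 read 8.32, 8.12 and 8.57 in daf-16 after UV, against 7.01, 7.45 and 6.95 in untreated daf-16 (1.20 ± 0.16, adjusted p = 1.8e-06). nlp-31 read 9.34, 9.35 and 9.72 after UV, against 8.34, 8.68 and 8.43 untreated (0.98 ± 0.17, adjusted p = 5.0e-05). In both genes the UV arrays overlapped those of N2 after UV, while the untreated arrays lay below those of untreated N2. nlp-28 read 8.19, 7.85 and 8.22 after UV, against 7.11, 7.27 and 7.22 untreated (0.89 ± 0.16, adjusted p = 1.0e-04), again without overlap. nlp-27 read 8.39, 8.30 and 8.93 after UV, against 6.88, 7.22 and 7.36 untreated (1.39 ± 0.15, adjusted p = 1.9e-08). cnc-4 read 7.17, 6.71 and 7.48 after UV, against 6.04, 6.19 and 5.73 untreated (1.13 ± 0.19, adjusted p = 3.6e-05). Both groups of cnc-4 stood lower than in N2. cnc-2 read 5.51, 5.22 and 5.41 after UV, against 4.52, 4.69 and 5.14 untreated (0.60 ± 0.13, adjusted p = 1.5e-03), and its call was lost with a fit of only the groups compared (0.60, adjusted p 5.9e-02). nlp-30 (0.43 ± 0.21, adjusted p = 1.7e-01) and nlp-33 (0.07 ± 0.15, adjusted p = 8.2e-01) were not called. nlp-30 was called as higher with a fit of only the groups compared (0.43, adjusted p 3.7e-02). Leaving out each array in turn kept 6 calls throughout, although replicate 3 after UV, the array that stood apart, had a molting-gene mean of 8.78 beside 9.87 and 9.83. Pharyngeal markers were called as higher for 4 of 4 after UV, neuronal as lower for 2 of 6, and epidermal as higher for 2 of 8 and lower for 3. Without the 3 arrays that stood apart the pharyngeal count was 3 and the neuronal 0. The Gapdh difference was 0.48 to 0.60 after UV, against 0.62 to 0.86 untreated, without overlap. The part of these in the member differences was not tested.

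daf-2 larvae started from higher levels of nlp-27, nlp-28 and nlp-29, and after UV 3 of 8 probe sets rose and 1 fell. The fit called 25% of all probe sets, 12.3% as higher and 12.6% as lower. cnc-4 rose most, by 2.71-fold, and nlp-28 and nlp-27 rose by 1.52 and 1.34-fold. nlp-33 was 1.35-fold lower after UV. The median change was 0.21 over the 8 and 0.016 over all probe sets, and groups did not overlap for 6 of 8 members, against 39.3% of all probe sets.

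cnc-4 read 7.68, 8.06 and 7.74 in daf-2 after UV, against 6.41, 6.65 and 6.12 in untreated daf-2 (1.44 ± 0.19, adjusted p = 2.7e-07). The UV arrays lay more than 1 log2 unit above all untreated arrays. nlp-28 read 8.91, 8.96 and 8.83 after UV, against 8.28, 8.23 and 8.36 untreated (0.61 ± 0.16, adjusted p = 3.6e-03), with tight groups that did not overlap. nlp-27 read 8.89, 9.02 and 8.81 after UV, against 8.41, 8.58 and 8.46 untreated (0.42 ± 0.15, adjusted p = 3.3e-02). nlp-33 read 9.38, 9.55 and 9.11 after UV, against 9.76, 9.78 and 9.79 untreated (-0.43 ± 0.15, adjusted p = 3.5e-02), so all UV arrays were below the untreated ones. The call of nlp-27 was lost without daf-2 UV replicate 1 or 2 or daf-2 untreated replicate 1 or 3 (0.37 to 0.43), and that of nlp-33 was lost without daf-2 UV replicate 1 or 3 or daf-2 untreated replicate 1, 2 or 3 (-0.45 to -0.31). nlp-29 read 9.03, 8.94 and 8.73 after UV, against 8.66, 8.78 and 8.69 untreated (0.19 ± 0.16, adjusted p = 4.8e-01), and these groups overlapped. nlp-30 (-0.24 ± 0.21, adjusted p = 4.9e-01), nlp-31 (-0.31 ± 0.17, adjusted p = 2.0e-01) and cnc-2 (0.23 ± 0.13, adjusted p = 2.5e-01) were not called. With a fit of only the groups compared, nlp-30 (-0.24, adjusted p 4.5e-02) and nlp-31 (-0.31, adjusted p 5.1e-03) were called as lower. nlp-31 was also called as lower with array weights (-0.38, adjusted p 7.0e-03). The molting-gene mean was 6.45 to 7.27 on these UV arrays, against 9.28 to 9.35 on untreated daf-2 arrays. The epidermal markers averaged 8.56 to 8.79 after UV, against 9.06 to 9.20 untreated, with 2 of 8 called as higher and 3 as lower. Neuronal markers averaged 7.95 to 7.99 after UV, against 8.40 to 8.44 untreated, with 4 of 6 called as lower. The 3′ to 5′ difference of the Actin controls was 0.87 to 1.12 after UV, against 0.63 to 0.79 untreated, and that of Gapdh 0.36 to 0.45 after UV, against 0.29 to 0.55. The part of these in the differences was not tested.

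In the double mutant 7 of 8 probe sets rose after UV and 0 fell, against 14.6% of all probe sets, 7.03% as higher and 7.58% as lower. cnc-4 rose by 2.09-fold, and the other 6, nlp-27, nlp-28, nlp-29, nlp-31, nlp-33 and cnc-2, by 1.33 to 1.54-fold. nlp-30 was not called (0.37 ± 0.21, adjusted p = 2.9e-01), but it was with array weights (0.54, adjusted p 2.2e-02). The median change was 0.50 over the 8 and -0.035 over all probe sets, and groups did not overlap for 6 of 8 members, against 28.9% of all probe sets.

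cnc-4 read 7.42, 7.45 and 7.52 in the double mutant after UV, against 6.51, 6.52 and 6.16 untreated (1.07 ± 0.19, adjusted p = 1.1e-04). nlp-27 read 8.34, 8.48 and 8.64 after UV, against 7.47, 7.98 and 8.13 untreated (0.63 ± 0.15, adjusted p = 3.0e-03). nlp-29 read 8.41, 8.45 and 8.34 after UV, against 7.62, 8.05 and 7.91 untreated (0.54 ± 0.16, adjusted p = 2.0e-02). In all 3 genes the groups did not overlap. nlp-33 read 9.57, 9.86 and 9.71 after UV, against 9.63, 9.07 and 9.01 untreated (0.48 ± 0.15, adjusted p = 3.0e-02), and untreated replicate 1, an array that stood apart, lay among the UV arrays. nlp-31 read 9.28, 9.44 and 9.54 after UV, against 9.11, 8.96 and 8.73 untreated (0.49 ± 0.17, adjusted p = 4.5e-02). nlp-28 read 8.0, 8.27 and 8.23 after UV, against 7.61, 7.66 and 7.70 untreated (0.51 ± 0.16, adjusted p = 2.6e-02). The remaining caenacin, cnc-2, read 5.30, 5.40 and 5.22 after UV, against 4.99, 4.86 and 4.83 untreated (0.41 ± 0.13, adjusted p = 3.4e-02).

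The call of cnc-4 in the double mutant held in every alternative that tested it, and each of the other 6 was lost in at least 1. That of nlp-27 was lost with a fit of only the groups compared (0.63, adjusted p 6.3e-02). nlp-28 was lost without double-mutant UV replicate 2 or 3 or double-mutant untreated replicate 1, 2 or 3 (0.45 to 0.53) and with the 3 arrays that stood apart left out (0.48, adjusted p 5.0e-02), and nlp-29 without double-mutant UV replicate 1 or 2 or double-mutant untreated replicate 1 (0.42 to 0.54) and with the 3 arrays that stood apart left out (0.42, adjusted p 7.0e-02). nlp-31 was lost without double-mutant UV replicate 1, 2 or 3 or double-mutant untreated replicate 2 or 3 (0.39 to 0.56) and with quantile normalization, median centring or no intensity trend (0.48 to 0.49, adjusted p 5.3e-02, 5.4e-02 and 5.2e-02). nlp-33 was lost without double-mutant UV replicate 2 or 3 or double-mutant untreated replicate 2 or 3 (0.36 to 0.48) and with a fit of only the groups compared (0.48, adjusted p 1.2e-01), and cnc-2 without double-mutant UV replicate 1 or 2 or double-mutant untreated replicate 2 or 3 (0.37 to 0.42). Neuronal markers were called as lower for 3 of 6 and pharyngeal as higher for 2 of 4, and without the 3 arrays for 2 and 1. Their part in the member differences was not tested.

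**Figure D2:**
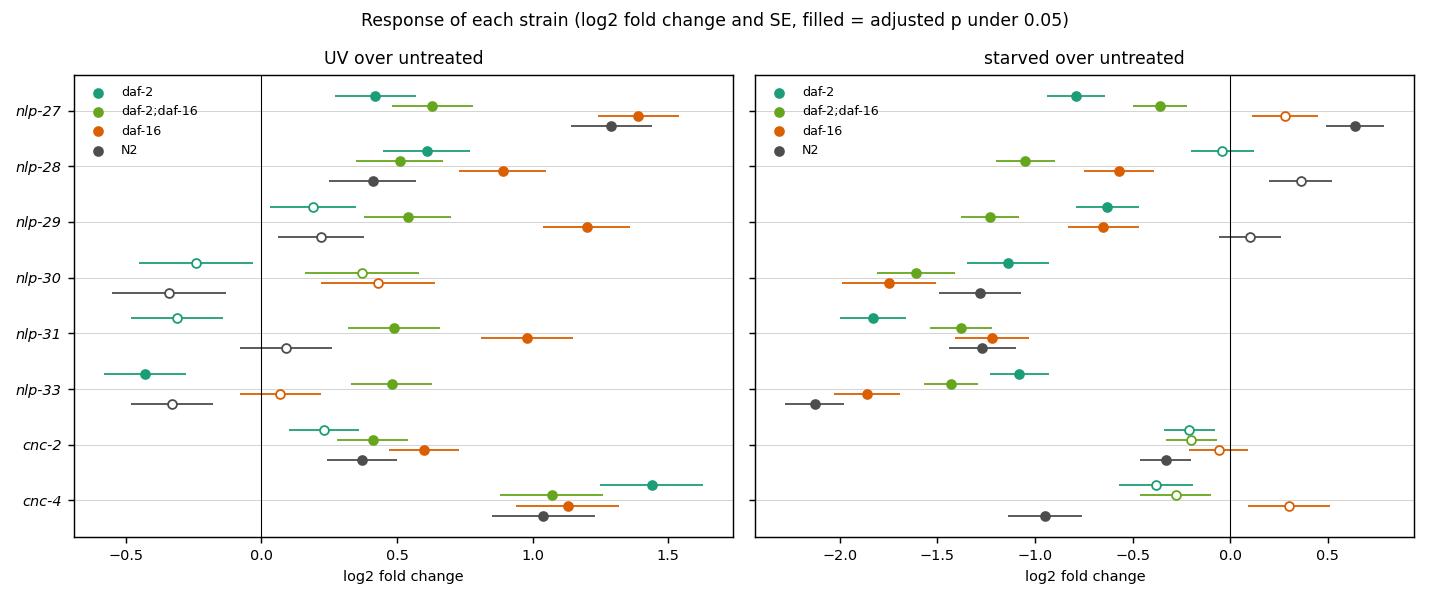
Log2 fold change and standard error of each member in each strain, after UV over untreated (left) and starved over untreated (right), with filled points for an adjusted p under 0.05. cnc-4 rose after UV in all 4 strains, while nlp-30, nlp-31 and nlp-33 fell in starvation in all 4.

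Whether the strains responded differently to UV was tested on the difference of the responses. Between daf-16 and N2, 2 of 8 probe sets differed, both with the larger rise in daf-16, against 1.85% of all probe sets, 1.04% as higher and 0.807% as lower. These were nlp-29 (1.20 in daf-16 and 0.22 in N2, a difference of 0.97 ± 0.23, adjusted p = 2.7e-02) and nlp-31 (0.98 and 0.09, a difference of 0.89 ± 0.24, adjusted p = 4.4e-02). Both differences depended on single arrays. That of nlp-29 was lost without daf-16 UV replicate 1, daf-16 untreated replicate 1 or 3, N2 UV replicate 3 or N2 untreated replicate 2 (0.69 to 0.98) and with a fit of only the groups compared (0.97, adjusted p 1.7e-01). That of nlp-31 was lost without daf-16 UV replicate 1, 2 or 3, daf-16 untreated replicate 1, 2 or 3, N2 UV replicate 2 or 3 or N2 untreated replicate 1, 2 or 3 (0.67 to 0.99) and with quantile normalization, no intensity trend or a fit of only the groups compared (0.82 to 0.89, adjusted p 7.8e-02, 5.0e-02 and 1.4e-01). Conversely, without N2 UV replicate 1 the differences of nlp-30 (1.06) and nlp-33 (0.63) were called. The rises of nlp-27 and cnc-4 were not shown to differ between daf-16 and N2 (0.09 ± 0.21, adjusted p = 8.4e-01 and 0.09 ± 0.27, adjusted p = 8.8e-01).

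Between daf-2 and N2, 1 of 8 probe sets differed, against 4.66% of all probe sets, 2.09% as higher and 2.57% as lower. nlp-27 rose less in daf-2 (0.42) than in N2 (1.29), a difference of -0.87 ± 0.21 (adjusted p = 9.7e-03) that held in every alternative that tested it. Between daf-2 and the double mutant 2 of 8 differed, against 5.45% of all probe sets, 2.7% as higher and 2.75% as lower. nlp-33 changed by -0.43 in daf-2 and 0.48 in the double mutant (-0.91 ± 0.21, adjusted p = 6.4e-03). nlp-31 had -0.31 in daf-2, which was not called, and 0.49 in the double mutant (-0.80 ± 0.24, adjusted p = 3.8e-02). The nlp-31 difference was lost without daf-2 UV replicate 1, 2 or 3, daf-2 untreated replicate 2 or 3, double-mutant UV replicate 2 or 3 or double-mutant untreated replicate 2 or 3 (-0.84 to -0.70) and with median centring (-0.77, adjusted p 5.4e-02). For cnc-4, called after UV in all 4 strains like nlp-27 and nlp-28, no difference between UV responses was called, the largest being 0.40 ± 0.27 (adjusted p = 5.6e-01) for daf-2 against N2.

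Starvation split the members. In starved N2 larvae nlp-33, nlp-30 and nlp-31 fell 4.38, 2.42 and 2.42-fold below the untreated level, cnc-4 fell 1.94-fold and cnc-2 1.26-fold. nlp-27 rose 1.56-fold, and its neighbours nlp-28 and nlp-29 were not called. So 5 of 8 probe sets fell and 1 rose, in a comparison that called 53.1% of all probe sets, 28.3% as higher and 24.7% as lower. The median change was -0.64 for the 8 and -0.031 for all. Starved and untreated arrays did not overlap for 6 of 8 members, against 60.3% of all probe sets.

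nlp-33 read 7.62, 7.36 and 7.65 in starved N2, against 9.52, 9.73 and 9.77 in untreated N2 (-2.13 ± 0.15, adjusted p = 6.3e-14). nlp-31 read 8.06, 8.13 and 7.81 starved, against 9.20, 9.44 and 9.17 untreated (-1.27 ± 0.17, adjusted p = 5.6e-08). nlp-30 read 6.55, 7.17 and 6.36 starved, against 7.65, 8.03 and 8.22 untreated (-1.28 ± 0.21, adjusted p = 3.6e-06). In these 3 genes every starved array lay below every untreated one. The opposite held for nlp-27, which read 7.66, 7.60 and 7.53 starved, against 7.12, 6.96 and 6.77 untreated (0.64 ± 0.15, adjusted p = 3.7e-04). nlp-28 read 8.14, 8.44 and 7.89 starved, against 7.80, 7.81 and 7.78 untreated (0.36 ± 0.16, adjusted p = 5.5e-02), so its groups did not overlap and it missed the threshold. It was called without N2 starved replicate 3 (0.49) and with a fit of only the groups compared (0.36, adjusted p 2.3e-02). It was also called without the lowest tertile of probe sets by mean level. nlp-29 read 8.05, 8.31 and 8.02 starved, against 7.94, 8.14 and 8.0 untreated (0.10 ± 0.16, adjusted p = 6.4e-01).

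Among the caenacins, cnc-4 read 5.81, 5.75 and 5.93 in starved N2, against 6.51, 6.90 and 6.94 untreated (-0.95 ± 0.19, adjusted p = 5.1e-05), with no overlap. cnc-2 read 4.64, 4.41 and 4.24 starved, against 4.61, 4.73 and 4.95 untreated (-0.33 ± 0.13, adjusted p = 3.8e-02). The cnc-2 call was lost without N2 starved replicate 2 or 3 or N2 untreated replicate 2 or 3 (-0.35 to -0.23) and with quantile normalization (-0.30, adjusted p 5.1e-02). The other 5 calls in starved N2 held in every alternative that tested them. The epidermal markers averaged 8.31 to 8.45 on starved N2 arrays, against 9.17 to 9.20 on untreated ones, with 3 of 8 called as higher and 4 as lower. Neuronal markers averaged 9.12 to 9.40 starved, against 8.28 to 8.34 untreated, with 5 of 6 called as higher, and body wall muscle and pharyngeal markers rose for 5 of 6 and 4 of 4. Of the intestinal markers 2 of 6 were higher and 4 lower, and of the germ line markers 2 of 4 lower. The Gapdh difference was 0.33 to 0.62 starved, against 0.73 to 0.91 untreated. The part of these in the member differences was not tested.

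In starved daf-16, nlp-28 and nlp-29 joined the falling genes: 5 of 8 probe sets fell and 0 rose, against 51.2% of all probe sets, 27% as higher and 24.2% as lower. This group has 2 arrays. Groups did not overlap for 7 of 8 members, against 68.9% of all probe sets. nlp-33 read 7.59 and 7.75 starved, against 9.76, 9.49 and 9.35 in untreated daf-16 (-1.86 ± 0.17, adjusted p = 3.3e-11). nlp-30 read 5.79 and 5.56 starved, against 7.42, 7.45 and 7.40 untreated (-1.75 ± 0.24, adjusted p = 1.1e-07). nlp-31 read 7.35 and 7.18 starved, against 8.34, 8.68 and 8.43 untreated (-1.22 ± 0.19, adjusted p = 1.1e-06). These 3 fell in N2 too, while nlp-29 and nlp-28, not called in N2, also stood lower. nlp-29 read 6.48 and 6.49 starved, against 7.01, 7.45 and 6.95 untreated (-0.65 ± 0.18, adjusted p = 2.9e-03). nlp-28 read 7.0 and 6.25 starved, against 7.11, 7.27 and 7.22 untreated (-0.57 ± 0.18, adjusted p = 6.8e-03). Its starved arrays differed by more than the fold change itself: without starved replicate 2 the change was -0.20 and not called, and without replicate 1 it was -0.95. nlp-27 (0.28 ± 0.17, adjusted p = 1.6e-01), cnc-2 (-0.06 ± 0.15, adjusted p = 7.8e-01) and cnc-4 (0.30 ± 0.21, adjusted p = 2.4e-01) were not called. The epidermal markers averaged 8.37 to 8.48 starved, against 9.25 to 9.34 untreated, with 3 of 8 called as higher and 4 as lower. Neuronal markers were called as higher for 5 of 6, pharyngeal for 4 of 4 and body wall muscle for 4 of 6. The Gapdh difference was 0.59 to 0.62 starved, against 0.62 to 0.86 untreated. Whether these bear on the member differences was not tested.

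Starved daf-2 larvae had 5 of 8 probe sets lower and 0 higher, against 43.0% of all probe sets, 23.3% as higher and 19.7% as lower. The groups did not overlap for 5 of 8 members, against 49.5% of all probe sets. nlp-31 fell most, 3.56-fold, followed by nlp-30 and nlp-33 at 2.20 and 2.12-fold, nlp-27 at 1.73 and nlp-29 at 1.54-fold. nlp-31 read 7.81, 7.93 and 8.05 starved, against 9.62, 9.83 and 9.84 in untreated daf-2 (-1.83 ± 0.17, adjusted p = 4.0e-11). nlp-33 read 8.70, 8.77 and 8.60 starved, against 9.76, 9.78 and 9.79 untreated (-1.08 ± 0.15, adjusted p = 3.0e-07). Starved daf-2 thereby kept the highest nlp-33 signal of the 4 starved groups. nlp-30 read 6.43, 6.74 and 6.44 starved, against 7.73, 7.70 and 7.59 untreated (-1.14 ± 0.21, adjusted p = 3.0e-05). nlp-27 read 7.87, 7.69 and 7.50 starved, against 8.41, 8.58 and 8.46 untreated (-0.79 ± 0.15, adjusted p = 3.2e-05), the opposite direction to N2. nlp-29 read 8.12, 8.03 and 8.10 starved, against 8.66, 8.78 and 8.69 untreated (-0.63 ± 0.16, adjusted p = 1.8e-03). For nlp-28 the groups overlapped, with 8.19, 8.30 and 8.26 starved, against 8.28, 8.23 and 8.36 untreated (-0.04 ± 0.16, adjusted p = 8.8e-01). cnc-2 (-0.21 ± 0.13, adjusted p = 2.4e-01) and cnc-4 (-0.38 ± 0.19, adjusted p = 1.1e-01) were not called, but cnc-4 was called without daf-2 untreated replicate 3 (-0.52). All 5 calls held in every alternative that tested them. The epidermal markers averaged 8.18 to 8.27 starved, against 9.06 to 9.20 untreated, with 2 of 8 called as higher and 5 as lower. Neuronal markers were called as higher for 5 of 6, pharyngeal for 4 of 4 and body wall muscle for 3 of 6. Their part in the differences was not tested.

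In the starved double mutant all 6 nlp genes fell and neither cnc gene was called, so 6 of 8 probe sets fell, against 54.5% of all probe sets, 27.7% as higher and 26.8% as lower. There was no overlap between groups for 6 of 8 members, against 57.5% of all probe sets. nlp-30 read 6.36, 5.72, 5.54 and 6.11 starved, against 7.87, 7.43 and 7.33 untreated (-1.61 ± 0.20, adjusted p = 1.4e-08). nlp-33 read 7.75, 7.98, 7.77 and 7.72 starved, against 9.63, 9.07 and 9.01 untreated (-1.43 ± 0.14, adjusted p = 1.5e-10). nlp-31 read 7.39, 7.38, 7.32 and 8.13 starved, against 9.11, 8.96 and 8.73 untreated (-1.38 ± 0.16, adjusted p = 2.6e-09). Starved replicate 4, an array that stood apart, lay far above the others for nlp-31 but still below all untreated arrays. nlp-29 read 6.49, 6.50, 6.59 and 6.91 starved, against 7.62, 8.05 and 7.91 untreated (-1.23 ± 0.15, adjusted p = 1.8e-08). nlp-28 read 6.23, 6.78, 6.66 and 6.78 starved, against 7.61, 7.66 and 7.70 untreated (-1.05 ± 0.15, adjusted p = 2.3e-07). Both thus fell more than 2-fold without overlap. nlp-27 read 7.50, 7.55, 7.49 and 7.46 starved, against 7.47, 7.98 and 8.13 untreated (-0.36 ± 0.14, adjusted p = 2.6e-02), with overlap. Its call was lost without double-mutant untreated replicate 2 or 3 (-0.30 to -0.23) and with a fit of only the groups compared (-0.36, adjusted p 5.3e-02), while without untreated replicate 1 the change was -0.56. cnc-2 (-0.20 ± 0.13, adjusted p = 1.9e-01) and cnc-4 (-0.28 ± 0.18, adjusted p = 1.9e-01) were not called. The epidermal markers averaged 8.23 to 8.49 starved, against 9.15 to 9.36 untreated, with 3 of 8 called as higher and 4 as lower. Neuronal markers were called as higher for 5 of 6, pharyngeal for 4 of 4 and body wall muscle for 5 of 6. Their part in these falls was not tested.

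Tested directly, the starvation responses of daf-16 and N2 differed for 2 of 8 probe sets, in opposite directions, against 3.0% of all probe sets, 1.29% as higher and 1.71% as lower. nlp-28 fell in daf-16 and was not called in N2 (-0.57 and 0.36, a difference of -0.93 ± 0.24, adjusted p = 2.1e-02). This difference was lost without daf-16 starved replicate 2, daf-16 untreated replicate 2 or N2 starved replicate 2 (-0.90 to -0.56). cnc-4 was not called in daf-16 and fell in N2 (0.30 and -0.95, a difference of 1.26 ± 0.28, adjusted p = 7.0e-03), and this held in every alternative that tested it. Untreated daf-16 already stood below untreated N2 for cnc-4. For nlp-29 the difference was -0.75 ± 0.24 (adjusted p = 9.9e-02).

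Between daf-2 and N2, 3 of 8 starvation responses differed, against 14.8% of all probe sets, 5.96% as higher and 8.89% as lower. nlp-27 fell in daf-2 and rose in N2 (-0.79 and 0.64, a difference of -1.44 ± 0.21, adjusted p = 8.5e-06). nlp-33 fell less in daf-2 than in N2 (-1.08 and -2.13, a difference of 1.05 ± 0.21, adjusted p = 7.0e-04). nlp-29 fell in daf-2 and was not called in N2 (-0.63 and 0.10, a difference of -0.73 ± 0.23, adjusted p = 2.9e-02). The differences of nlp-27 and nlp-33 held in every alternative that tested them, and that of nlp-29 was lost without daf-2 starved replicate 2, daf-2 untreated replicate 2, N2 starved replicate 2 or N2 untreated replicate 1 or 3 (-0.71 to -0.63). Between daf-2 and the double mutant 1 of 8 differed, against 12.8% of all probe sets, 5.25% as higher and 7.54% as lower. nlp-28 was not called in starved daf-2 and fell in the starved double mutant (-0.04 and -1.05, a difference of 1.01 ± 0.22, adjusted p = 1.5e-03), also in every alternative that tested it. nlp-29 went the same way and missed the threshold (0.61 ± 0.22, adjusted p = 7.0e-02). It was called without double-mutant starved replicate 4 or double-mutant untreated replicate 1 (0.71 to 0.73). Responses to UV and to starvation in a strain share that strain's untreated arrays.

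Without any treatment, daf-16 larvae had lower signal than N2 for nlp-29, nlp-31, nlp-28 and cnc-4. These 4 of 8 probe sets were called as lower and 0 as higher, while the fit called 1.43% of all probe sets, 0.825% as higher and 0.603% as lower. nlp-29 read 7.01, 7.45 and 6.95 in untreated daf-16, against 7.94, 8.14 and 8.0 in untreated N2 (-0.89 ± 0.16, adjusted p = 1.5e-03), or 1.85-fold lower. cnc-4 read 6.04, 6.19 and 5.73 in daf-16, against 6.51, 6.90 and 6.94 in N2 (-0.80 ± 0.19, adjusted p = 1.7e-02). nlp-31 read 8.34, 8.68 and 8.43 in daf-16, against 9.20, 9.44 and 9.17 in N2 (-0.79 ± 0.17, adjusted p = 6.6e-03). In each of them the strains did not overlap. nlp-28 read 7.11, 7.27 and 7.22 in daf-16, against 7.80, 7.81 and 7.78 in N2 (-0.60 ± 0.16, adjusted p = 4.7e-02). nlp-30 read 7.42, 7.45 and 7.40 in daf-16, against 7.65, 8.03 and 8.22 in N2 (-0.54 ± 0.21, adjusted p = 3.5e-01), without overlap and not called. These strains did not overlap for 5 of 8 members, against 18.8% of all probe sets. nlp-27 (0.20 ± 0.15, adjusted p = 8.3e-01), nlp-33 (-0.14 ± 0.15, adjusted p = 9.2e-01) and cnc-2 (0.02 ± 0.13) were not called.

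Of these 4 calls, that of nlp-29 held in every alternative that tested it. nlp-28 was lost without daf-16 untreated replicate 1, 2 or 3 or N2 untreated replicate 1, 2 or 3 (-0.63 to -0.55) and with no intensity trend (-0.60, adjusted p 5.7e-02). nlp-31 was lost without daf-16 untreated replicate 1 or N2 untreated replicate 2 (-0.71 to -0.70), and cnc-4 without daf-16 untreated replicate 1 or 3 or N2 untreated replicate 2 or 3 (-0.82 to -0.67). The molting genes averaged 10.22 to 10.36 on the untreated daf-16 arrays, against 10.16 to 10.28 on those of N2, and the epidermal markers 9.25 to 9.34, against 9.17 to 9.20. The Gapdh difference was 0.62 to 0.86 in daf-16, against 0.73 to 0.91 in N2.

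Untreated daf-2 larvae had more signal than N2 for nlp-27, nlp-29, nlp-28 and nlp-31. These 4 of 8 were called as higher and 0 as lower, against 16.8% of all probe sets, 9.97% as higher and 6.81% as lower. nlp-27 read 8.41, 8.58 and 8.46 in untreated daf-2, against 7.12, 6.96 and 6.77 in untreated N2 (1.53 ± 0.15, adjusted p = 1.3e-09), 2.88-fold. The untreated daf-2 level of nlp-27 (8.48 ± 0.08, SD, n = 3) lay near that of N2 after UV (8.24 ± 0.20, SD, n = 3), a pair that was not tested. nlp-29 read 8.66, 8.78 and 8.69 in daf-2, against 7.94, 8.14 and 8.0 in N2 (0.69 ± 0.16, adjusted p = 2.3e-03). nlp-28 read 8.28, 8.23 and 8.36 in daf-2, against 7.80, 7.81 and 7.78 in N2 (0.50 ± 0.16, adjusted p = 2.6e-02). nlp-31 read 9.62, 9.83 and 9.84 in daf-2, against 9.20, 9.44 and 9.17 in N2 (0.49 ± 0.17, adjusted p = 3.8e-02). For these 4 genes no daf-2 array lay within the N2 range, and daf-2 and N2 did not overlap for 4 of 8 members, against 35.2% of all probe sets. nlp-30 (-0.30 ± 0.21, adjusted p = 4.2e-01), nlp-33 (0.10 ± 0.15, adjusted p = 7.5e-01), cnc-2 (-0.04 ± 0.13, adjusted p = 9.0e-01) and cnc-4 (-0.39 ± 0.19, adjusted p = 1.8e-01) were not called. The calls of nlp-27 and nlp-29 held in every alternative that tested them. nlp-28 was lost without daf-2 untreated replicate 1 or 3 or N2 untreated replicate 1, 2 or 3 (0.46 to 0.50), and nlp-31 without daf-2 untreated replicate 2 or 3 or N2 untreated replicate 1 or 3 (0.44 to 0.46) and with quantile normalization or median centring (0.47 to 0.48, adjusted p 5.5e-02 and 5.1e-02). The molting genes averaged 9.28 to 9.35 on these daf-2 arrays, against 10.16 to 10.28 on those of N2. Intestinal markers were called as higher for 2 of 6, pharyngeal for 2 of 4 and epidermal for 3 of 8, with 3 epidermal ones lower. The Gapdh difference was 0.29 to 0.55 in daf-2, against 0.73 to 0.91 in N2, without overlap. The part of these in the strain differences was not tested.

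Against the untreated double mutant, untreated daf-2 had 5 of 8 probe sets higher and 0 lower, against 11.6% of all probe sets, 5.75% as higher and 5.84% as lower. nlp-29 read 8.66, 8.78 and 8.69 in daf-2, against 7.62, 8.05 and 7.91 in the double mutant (0.85 ± 0.16, adjusted p = 3.0e-04). nlp-31 read 9.62, 9.83 and 9.84 in daf-2, against 9.11, 8.96 and 8.73 in the double mutant (0.83 ± 0.17, adjusted p = 5.3e-04). nlp-28 (0.63 ± 0.16, adjusted p = 5.4e-03), nlp-27 (0.62 ± 0.15, adjusted p = 3.4e-03) and nlp-33 (0.54 ± 0.15, adjusted p = 1.5e-02) were also higher in daf-2, and these strains did not overlap for 5 of 8 members, against 25.4% of all probe sets. The nlp-27 call was lost without double-mutant untreated replicate 1 (0.42) and with a fit of only the groups compared (0.62, adjusted p 5.1e-02). The nlp-33 call was lost without double-mutant untreated replicate 2 or 3 (0.42 to 0.46) and with a fit of only the groups compared (0.54, adjusted p 7.1e-02). nlp-30 (0.13 ± 0.21, adjusted p = 8.3e-01) and cnc-2 (-0.18 ± 0.13, adjusted p = 5.4e-01) were not called, nor was cnc-4, with 6.41, 6.65 and 6.12 in daf-2 and 6.51, 6.52 and 6.16 in the double mutant. The Gapdh difference was 0.29 to 0.55 in daf-2, against 0.61 to 0.71 in the double mutant, without overlap, and body wall muscle markers were called as higher for 2 of 6. Their part was not tested.

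The double mutant stood above N2 for nlp-27, which read 7.47, 7.98 and 8.13 in the untreated double mutant, against 7.12, 6.96 and 6.77 in N2 (0.91 ± 0.15, adjusted p = 7.2e-05). This was the 1 of 8 probe sets called, against 10.5% of all probe sets, 6.45% as higher and 4.1% as lower, and groups did not overlap for 3 of 8 members, against 27% of all probe sets. Fold changes of the other 7 were between -0.44 (nlp-33) and 0.13 (cnc-2). nlp-33 was called as lower without double-mutant untreated replicate 1 (-0.64), and nlp-31 and nlp-33 without the 3 arrays that stood apart (-0.42 and -0.64). Pharyngeal markers were called as higher for 2 of 4, and molting genes as lower for 6 of 18. Without the 3 arrays that stood apart, 11 molting genes were lower and 1 higher. The Gapdh difference was 0.61 to 0.71 in the double mutant, against 0.73 to 0.91 in N2, without overlap. The part of these in the member differences was not tested. The 4 strain comparisons share their untreated arrays, so a low or high array enters more than one of them.

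The same pairs of strains were then compared within each treatment, a choice made after the values were seen. After UV, daf-16 and N2 differed for 1 of 8 probe sets, against 19.3% of all probe sets, 11.2% as higher and 8.12% as lower. This was cnc-4, with 7.17, 6.71 and 7.48 in daf-16 and 8.15, 8.08 and 7.23 in N2 (-0.70 ± 0.19, adjusted p = 9.0e-03). The cnc-4 call was lost without daf-16 UV replicate 2 or N2 UV replicate 2 (-0.57 to -0.50) and with a fit of only the groups compared (-0.70, adjusted p 1.7e-01). Of the other genes lower in untreated daf-16, nlp-29 (0.09 ± 0.16, adjusted p = 7.4e-01), nlp-31 (0.10 ± 0.17, adjusted p = 6.9e-01) and nlp-28 (-0.12 ± 0.16, adjusted p = 6.1e-01) were not called. After UV this pair did not overlap for 0 of 8 members, against 25.9% of all probe sets. nlp-33 was called as higher without N2 UV replicate 1 (0.49). Between daf-2 and the double mutant after UV, nlp-28 (0.73 ± 0.16, adjusted p = 9.6e-04) and nlp-29 (0.50 ± 0.16, adjusted p = 3.6e-02) were higher in daf-2. These were 2 of 8, against 13.6% of all probe sets, 7.33% as higher and 6.28% as lower. Groups did not overlap for 7 of 8 members, against 30.6% of all probe sets, and not all in one direction. Without being called, nlp-30 (-0.48 ± 0.21, adjusted p = 1.4e-01), nlp-33 (-0.37 ± 0.15, adjusted p = 1.2e-01) and cnc-2 (-0.36 ± 0.13, adjusted p = 7.8e-02) lay lower in daf-2. cnc-4 lay higher (0.37 ± 0.19, adjusted p = 2.4e-01), as did nlp-27. The nlp-29 call was lost without daf-2 UV replicate 1 or 2 or double-mutant UV replicate 1, 2 or 3 (0.43 to 0.52). nlp-27 (0.42 ± 0.15, adjusted p = 5.7e-02) was called without double-mutant UV replicate 3 (0.50). On the UV arrays the molting genes averaged 8.78 to 9.87 in daf-16, against 8.43 to 8.92 in N2, and 6.45 to 7.27 in daf-2, against 8.98 to 9.29 in the double mutant. Their part in these differences was not tested.

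In starvation the strains separated most for nlp-28 and nlp-29. Starved daf-16 was lower than starved N2 for 4 of 8 probe sets, against 7.75% of all probe sets, 4.04% as higher and 3.72% as lower. The starved arrays of these strains did not overlap for 6 of 8 members, against 38.2% of all probe sets. nlp-29 read 6.48 and 6.49 in starved daf-16, against 8.05, 8.31 and 8.02 in starved N2 (-1.64 ± 0.18, adjusted p = 6.6e-08), 3.12-fold lower. nlp-28 read 7.0 and 6.25 in daf-16, against 8.14, 8.44 and 7.89 in N2 (-1.53 ± 0.18, adjusted p = 1.4e-07), 2.89-fold lower. Both calls held in every alternative that tested them. nlp-30 (-1.02 ± 0.24, adjusted p = 4.4e-03) and nlp-31 (-0.73 ± 0.19, adjusted p = 1.0e-02) were lower as well. Leaving out N2 starved replicate 2 or daf-16 starved replicate 2 ended the calls of nlp-30 (-0.78 and -0.90) and nlp-31 (-0.67 and -0.65). nlp-27 (-0.16 ± 0.17, adjusted p = 6.6e-01), nlp-33 (0.13 ± 0.17, adjusted p = 7.4e-01), cnc-2 (0.30 ± 0.15, adjusted p = 2.7e-01) and cnc-4 (0.46 ± 0.21, adjusted p = 2.1e-01) were not called. The epidermal markers averaged 8.37 to 8.48 in starved daf-16, against 8.31 to 8.45 in starved N2, with 1 of 8 called as higher.

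The other pair of strains differed for nlp-28 and nlp-29 too, with the higher signal in daf-2. Starved daf-2 was higher than the starved double mutant for 4 of 8 probe sets, against 22.9% of all probe sets, 9.84% as higher and 13.1% as lower. Groups here did not overlap for 4 of 8 members, against 30.7% of all probe sets. nlp-28 read 8.19, 8.30 and 8.26 in starved daf-2, against 6.23, 6.78, 6.66 and 6.78 in the starved double mutant (1.64 ± 0.15, adjusted p = 1.5e-10), 3.11-fold higher. nlp-29 read 8.12, 8.03 and 8.10 in daf-2, against 6.49, 6.50, 6.59 and 6.91 in the double mutant (1.46 ± 0.15, adjusted p = 3.7e-09), 2.75-fold higher. For both genes the gap between the groups was over 1 log2 unit. nlp-33 was also higher in daf-2 (0.89 ± 0.14, adjusted p = 1.0e-05), as was nlp-30 (0.60 ± 0.20, adjusted p = 2.4e-02). The nlp-30 call was lost without daf-2 starved replicate 2 or double-mutant starved replicate 2 or 3 (0.47 to 0.53). nlp-31 missed the threshold (0.37 ± 0.16, adjusted p = 8.3e-02) and was called without double-mutant starved replicate 4 (0.57). The calls of nlp-28, nlp-29 and nlp-33 held in every alternative that tested them. Pharyngeal markers were lower in starved daf-2 for 4 of 4, epidermal for 3 of 8, and intestinal markers higher for 3 of 6 and lower for 2. Their part in these differences was not tested.

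**Figure D3:**
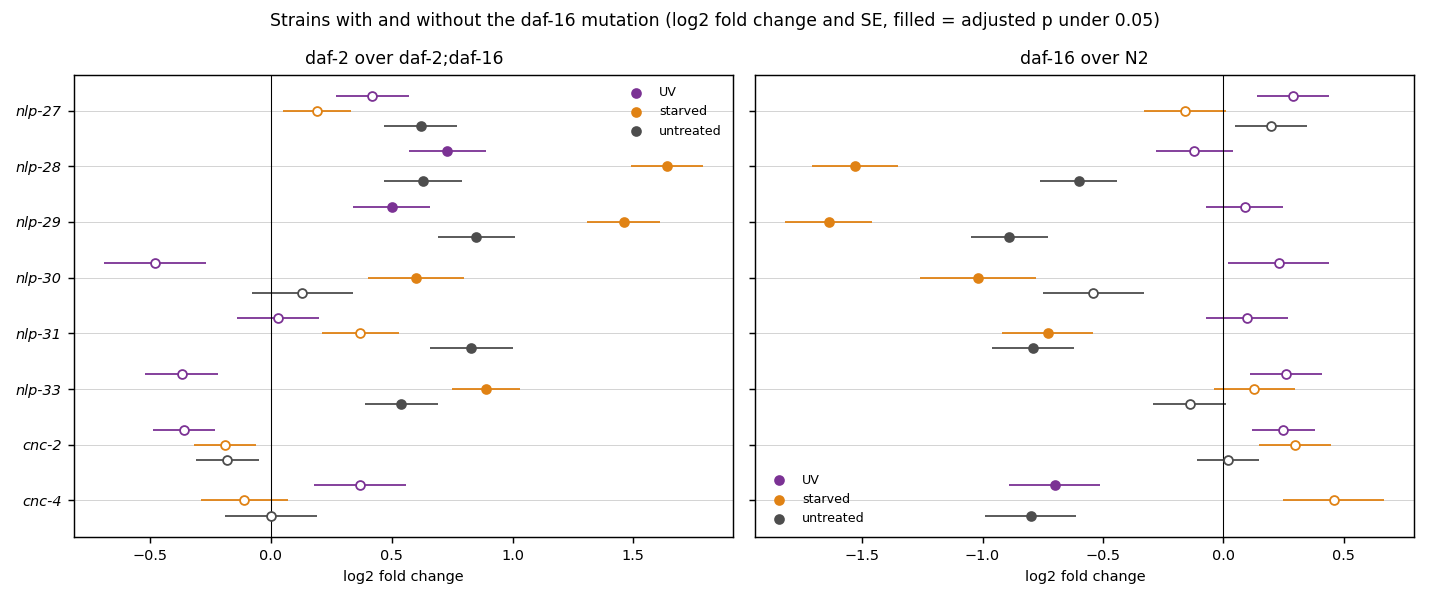
Log2 fold change and standard error of each member between strains within each treatment, daf-2 over daf-2;daf-16 (left) and daf-16 over N2 (right), with filled points for an adjusted p under 0.05. In starvation nlp-28 and nlp-29 differed by 1.64 and 1.46 for daf-2 over daf-2;daf-16 and by -1.53 and -1.64 in daf-16 against N2.

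Other genes of these families and of their known signalling routes were counted from lists. Of 14 measured further epidermal antimicrobial peptide genes, 3 rose and 3 fell in N2 after UV, where 13.6% of all probe sets rose and 15.2% fell. In starved N2, 2 rose and 5 fell, against 28.3% and 24.7% of all probe sets. The median changes of this list were 0.06 and -0.05. nlp-26, a gene of the same family, read 7.74 in N2 after UV, 7.81 in starved N2 and 4.90 in untreated N2, a rise of 2.84 ± 0.22 and of 2.91 ± 0.22 (adjusted p = 6.4e-12 and 2.6e-13). Untreated daf-2 also had more nlp-26 than N2, with 6.71 (1.81 ± 0.22, adjusted p = 1.1e-07). nlp-26 thus was called as higher, like nlp-27, in all 3 comparisons. The nlp-27 probe set is marked as shared, and whether it takes up signal of related genes was not tested. cnc-3, which lies between cnc-4 and cnc-2, read 9.55 after UV and 6.90 in starvation, against 10.02 untreated (-0.48 ± 0.12 and -3.12 ± 0.12, adjusted p = 2.0e-03 and 8.4e-21). After UV the cnc-3 probe set therefore read lower, while those of both its caenacin neighbours read higher. The cnc-3 and cnc-2 probe sets are both marked as shared, so their signals may be mixed. The cnc-2 call was also lost in several alternatives. cnc-8 was lower in starved N2 (-1.14 ± 0.13, adjusted p = 2.0e-09) and higher in untreated daf-2 than in N2 (1.12 ± 0.13, adjusted p = 3.3e-08). The fungus-induced gene fip-5 was lower in starved N2 (-1.15 ± 0.12, adjusted p = 3.1e-10) and fip-2 higher in untreated daf-2 (0.34 ± 0.11, adjusted p = 3.3e-02). After UV in N2 nlp-25 rose (0.60 ± 0.18, adjusted p = 1.3e-02) and nlp-24 fell (-0.58 ± 0.13, adjusted p = 9.7e-04).

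Of 19 measured genes of the epidermal immune signalling list, 7 rose and 2 fell in N2 after UV, against the same 13.6% and 15.2% of all probe sets. Among them were the transporter gene snf-12 (0.66 ± 0.12, adjusted p = 4.0e-05), the receptor gene dcar-1 (0.56 ± 0.12, adjusted p = 5.0e-04) and gpa-12 (0.49 ± 0.12, adjusted p = 1.5e-03), while the kinase gene akt-1 of the insulin pathway fell (-0.80 ± 0.15, adjusted p = 6.3e-05). In starved N2, where 28.3% of all probe sets rose and 24.7% fell, 14 rose and 1 fell, with a median of 0.88. The largest were the protein kinase C gene tpa-1 (1.49 ± 0.16, adjusted p = 8.9e-10), the p38 pathway kinase gene sek-1 (1.19 ± 0.13, adjusted p = 1.3e-09), akt-1 (1.19 ± 0.15, adjusted p = 1.9e-08) and the phosphatase gene vhp-1 (1.18 ± 0.12, adjusted p = 4.9e-10). Most of the listed signalling transcripts thus rose in the whole larvae in which nlp-30, nlp-31 and nlp-33 fell. In which cells they rose, and whether they act on the members here, was not tested. In untreated daf-2 against N2, 3 were higher and 2 lower, against 9.97% and 6.81% of all probe sets: gpa-12 (0.75 ± 0.12, adjusted p = 1.1e-05), akt-1 (0.59 ± 0.15, adjusted p = 3.9e-03) and the epidermal GATA factor gene elt-3 (0.39 ± 0.09, adjusted p = 9.6e-04) were higher, and the phospholipase gene plc-3 was among those lower (-0.32 ± 0.10, adjusted p = 2.5e-02).

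Of 10 measured genes of the DBL-1 route, 1 rose and 0 fell in N2 after UV, against 13.6% and 15.2% of all probe sets. This was the Smad gene sma-3 (0.71 ± 0.13, adjusted p = 6.6e-05). Whether the listed genes act on cnc-2 was not tested. In starved N2, 9 rose and 1 fell, against 28.3% and 24.7% of all probe sets. The schnurri-like factor gene sma-9 (1.60 ± 0.08, adjusted p = 1.2e-17), the receptor gene sma-6 (1.59 ± 0.19, adjusted p = 8.1e-09) and the Smad gene sma-2 (1.46 ± 0.10, adjusted p = 1.8e-14) rose. lon-1, a known target that the route represses, fell (-4.87 ± 0.11, adjusted p = 3.7e-26). In untreated daf-2 against N2, 5 were higher, against 9.97% of all probe sets, including sma-3 (0.85 ± 0.13, adjusted p = 8.1e-06), sma-10 (0.61 ± 0.12, adjusted p = 2.0e-04), sma-6 (0.55 ± 0.19, adjusted p = 4.1e-02) and the receptor gene daf-4 (0.54 ± 0.08, adjusted p = 6.5e-06), while cnc-2 was not called.

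All 5 measured furrow collagen genes fell in N2 after UV, in daf-2 after UV and in daf-16 after UV, with medians of -2.09, -4.11 and -1.16, while 15.2%, 12.6% and 7.76% of all probe sets fell. In daf-16 replicate 3, the array that stood apart, was the lowest: their mean was 11.44, 11.58 and 9.99 after UV, against 12.07, 12.17 and 12.16 untreated, and without the 3 arrays that stood apart 2 of 5 fell, with a median of -0.67. In the double mutant their mean was 10.56, 10.93 and 10.59 after UV, against 12.07, 10.93 and 10.88 untreated. The median change was -0.59 there, and -0.22 without those 3 arrays, of which untreated replicate 1 is one. For example dpy-7 read 10.07 after UV, against 12.17 in untreated N2 (-2.09 ± 0.31, adjusted p = 2.1e-06), and dpy-2 fell by 2.34 ± 0.33 (adjusted p = 1.1e-06). In starvation all 5 fell in all 4 strains, where 19.7% to 26.8% of all probe sets fell. Their median was -6.67 in N2. These values are of RNA, and the collagen of the cuticle was not measured. Untreated daf-2 had 4 of 5 lower than N2, against 6.81% of all probe sets, with dpy-8 the most (-1.56 ± 0.30, adjusted p = 1.8e-04). The untreated double mutant had 2 of 5 lower than N2 (median -0.92), against 4.1% of all probe sets. Without the 3 arrays that stood apart, all 5 were lower there (median -1.29). The 18 molting genes moved with them: 15 fell in N2 after UV and 16 in starved N2, where 15.2% and 24.7% of all probe sets fell. In the double mutant after UV 2 of them fell, against 7.58% of all probe sets. The part of these in the nlp and cnc differences was not tested.

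**Figure D4:**
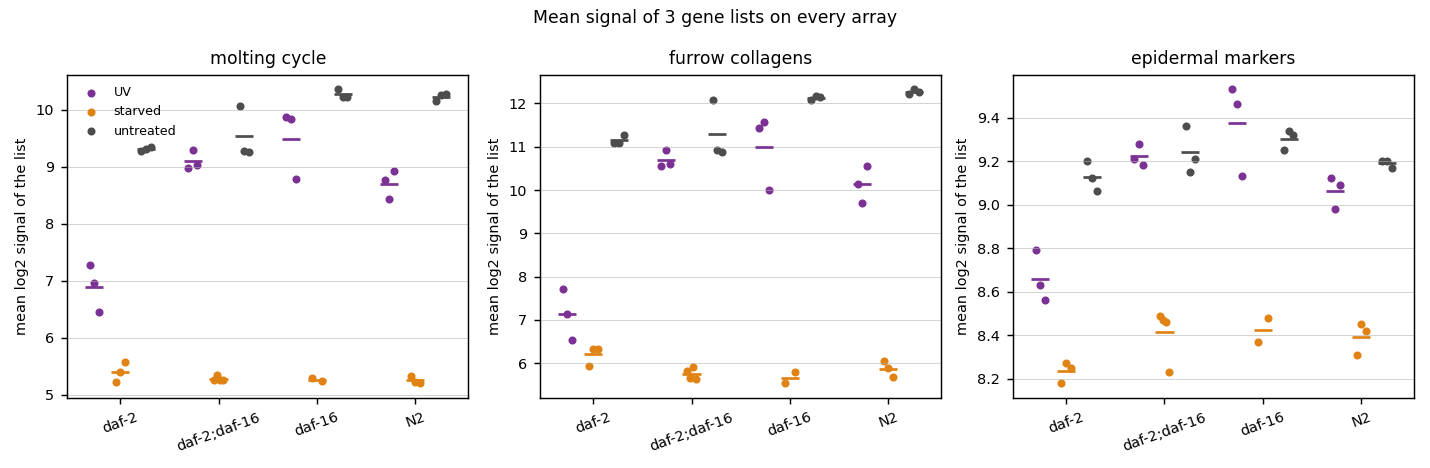
Mean log2 signal of the molting cycle, furrow collagen and epidermal marker lists on every array (points) with group means (bars), by strain along the x axis and by treatment in colour. Furrow collagens average 9.71 to 10.55 on N2 arrays after UV and 5.67 to 6.05 on starved N2 arrays, against 12.23 to 12.33 on untreated ones. Epidermal markers average 8.18 to 9.53 over all arrays. Their list includes the furrow collagen gene dpy-7 and genes that changed in opposite directions.

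The members were also compared with each other over the 12 group means, as a description. The closest pair was nlp-28 and nlp-29 (Pearson correlation 0.97), followed by nlp-30 and nlp-31 (0.94), nlp-30 and nlp-33 (0.91) and nlp-31 and nlp-33 (0.89). cnc-2 and cnc-4 followed each other less closely (0.78), and nlp-28 and cnc-2 the least of all pairs (0.24). nlp-33, which lies away from the cluster, was therefore nearer to nlp-30 and nlp-31 than their cluster neighbour nlp-27 was (0.39 and 0.62). The nlp-28 and nlp-29 probe sets are both marked as shared, and these points share arrays, so how much of the likeness comes from cross-matching probes was not tested. Deviations of single arrays from their group mean correlated between -0.20 (nlp-27 and nlp-33) and 0.72 (nlp-29 and nlp-31). Among 2857 other unshared probe sets with an SD of at least 0.5 over the groups, those most like the mean of the 6 nlp genes were C55A6.4 (0.966), ugt-62 (0.964), lec-6 (0.964), ttr-2 (0.962) and F20G2.2 (0.955). Those most like the mean of both cnc genes were Y49F6B.2 (0.961), Y66D12A.10 (0.959), crn-2 (0.958), ZK177.9 (0.955) and C34H4.1 (0.955).

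**Figure D5:**
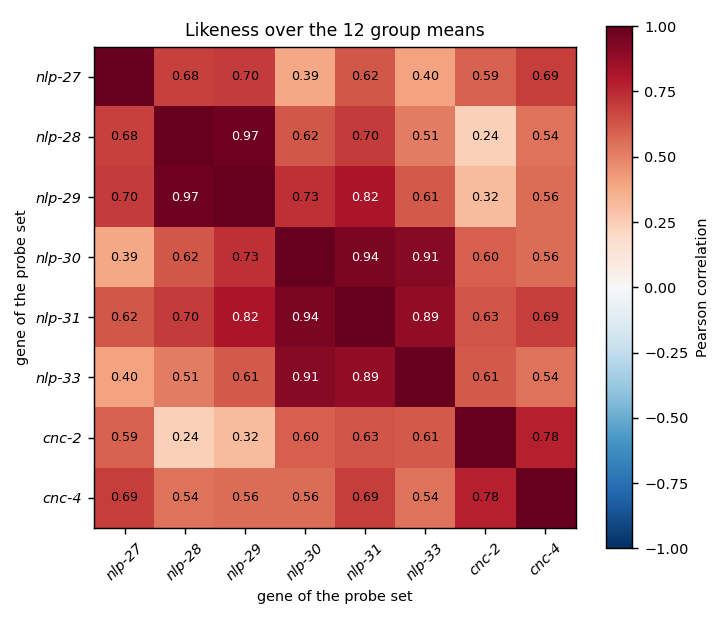
Pearson correlation of each pair of member probe sets over the 12 group means, with the colour scale from -1 to 1. nlp-28 with nlp-29 (0.97) and nlp-30 with nlp-31 (0.94) are the closest pairs, and nlp-28 with cnc-2 (0.24) the most distant.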

How the data were processed

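RNA was measured on single-colour Affymetrix arrays of 36 samples in 12 groups of strain and treatment, grouped by the labels. The authors deposited one table of normalized log2 signals, which span 2.63 to 14.9 with array medians of 5.793 to 5.879. Affymetrix Power Tools was used, per the submitters' processing notes, with no version or summarization method named. The values are read as log2 from their range. Of 22625 probe sets, 77 controls were left out and 22548 tested. The platform annotation, with symbols updated through RefSeq's gene table where possible, gives 20766 of these 1 symbol, 887 several and 895 none. Probe sets with several symbols or a suffix of cross-matching probes (6954) were marked as shared.

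One model with a mean for each of the 12 groups was fitted with limma 3.58.1 (lmFit and eBayes with an intensity trend, 24 residual degrees of freedom) in R 4.3.3. Contrasts were differences of group means and differences of those differences. The number of arrays limits the precision, and the scripts were tested on simulated data. The fit was repeated with median centring, quantile normalization, array weights or no intensity trend, with a block for the replicate number, and on the compared groups alone. It was also repeated without shared probe sets, without the lowest tertile of probe sets by mean level, without 3 arrays that stood apart, and without each array in turn. Of the further lists, the 4 called genes of largest change were named for N2 after UV, starved N2 and untreated daf-2 against N2, and the 5 probe sets most like each family's mean profile. cnc-9, cnc-10, cnc-11, fip-6, fip-7, nsy-1, crm-1 and dpy-10 have no probe set here that is annotated to that gene alone. Members and lists were chosen with earlier results of these data known. No sequences were used here.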

Additional observations from a re-analysis of the deposited data

Results flagged for a closer look

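One sample stood far from the others of its group. In the starved double mutant, nlp-31 read 8.13 in replicate 4 and 7.32 to 7.39 in the other 3, so that the gap to its nearest neighbour took up 0.92 of the whole range. This array also stood apart over all probe sets. The fall of nlp-31 in this strain was called with and without it.

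For the other results, the difference between 2 strains in their response to the same treatment passed the test in limma. After UV, the response of daf-16 exceeded that of N2 by 0.97 ± 0.23 (adjusted p = 2.7e-02) for nlp-29 and by 0.89 ± 0.24 (adjusted p = 4.4e-02) for nlp-31. The UV response of daf-2 minus that of N2 was -0.87 ± 0.21 (adjusted p = 9.7e-03) for nlp-27. The UV response of daf-2 minus that of the double mutant was -0.80 ± 0.24 (adjusted p = 3.8e-02) for nlp-31 and -0.91 ± 0.21 (adjusted p = 6.4e-03) for nlp-33. In starvation, daf-16 minus N2 gave -0.93 ± 0.24 (adjusted p = 2.1e-02) for nlp-28 and 1.26 ± 0.28 (adjusted p = 7.0e-03) for cnc-4. Starved daf-2 minus N2 gave -1.44 ± 0.21 (adjusted p = 8.5e-06) for nlp-27, -0.73 ± 0.23 (adjusted p = 2.9e-02) for nlp-29 and 1.05 ± 0.21 (adjusted p = 7.0e-04) for nlp-33. In starvation, the response of daf-2 minus that of the double mutant was 1.01 ± 0.22 (adjusted p = 1.5e-03) for nlp-28. Of these 11 differences, 6 held in every alternative that tested them: nlp-27 and nlp-33 after UV, and cnc-4, nlp-27, nlp-33 and nlp-28 (daf-2 against the double mutant) in starvation.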

How the results depend on the processing

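Of 79 called results of single members, 48 kept their call in every alternative that tested them, 29 lost it when some array was left out, 18 lost it under another setting, and 0 changed direction. Conversely, 18 single-member results gained a call with array weights, and 14 with a fit of only the groups compared. Members called in no alternative were not followed. The cause of a change was not tested, except that fewer arrays or fewer probe sets were fitted where the setting says so. Leaving out the shared probe sets leaves only cnc-4, so the count was 1 for UV in each strain, starvation in N2, untreated and UV-treated daf-16 against N2 and the starvation response of daf-16 against N2, and 0 elsewhere. With only the groups compared, 3 members were called for untreated daf-2 against the double mutant, 0 for UV responses of daf-16 against N2 and for daf-16 against N2 after UV, 2 for the starvation response of daf-2 against the double mutant, and 7 for these strains after UV. The count for the untreated double mutant against N2 was 2 with quantile normalization, the replicate block or without the lowest tertile by mean level, 5 with array weights, and 3 without the 3 arrays that stood apart. UV responses of daf-16 against N2 gave 1 with quantile normalization and 1 with no intensity trend, and that of daf-2 against the double mutant gave 1 with median centring. The starvation response of daf-2 against the double mutant gave 2 with quantile normalization, array weights, the replicate block or without those 3 arrays. daf-2 against the double mutant after UV gave 6 with array weights.

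When each array was left out in turn, UV called 2 to 5 members in N2, 6 in daf-16, 2 to 3 in daf-2 and 2 to 5 in the double mutant. Starvation called 5 to 6 in N2, 4 to 5 in daf-16, 5 to 6 in daf-2 and 5 to 6 in the double mutant. Untreated daf-16 against N2 gave 1 to 3, daf-2 against N2 2 to 3, daf-2 against the double mutant 4 to 5, and the double mutant against N2 1 to 2. Differences of UV responses gave 0 to 4 for daf-16 and 1 for daf-2 against N2, and 1 to 2 for daf-2 against the double mutant. Differences of starvation responses gave 1 to 2, 2 to 3 and 1 to 2 in the same order. After UV, daf-16 against N2 gave 0 to 2 and daf-2 against the double mutant 1 to 2. In starvation these pairs gave 2 to 4 and 3 to 5.

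Groups share replicate numbers, and same-numbered arrays deviated from their group means with correlations of -0.21 to 0.435. In no comparison did every pair exceed 0.1, so the numbers were not used as pairs. Whether same-numbered arrays belong together remains undetermined. In some comparisons all pairs were positive, among them UV in daf-16 (0.091 to 0.361) and starvation in daf-2 (0.07 to 0.435). With the replicate number as a block, nlp-28 lost its call for UV in N2 and for untreated daf-16 against N2, and nlp-27 for starvation in the double mutant (each adjusted p = 5.4e-02 in limma).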

Other observations

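The further lists were also counted in the mutants. After UV, 12.3% of all probe sets rose and 12.6% fell in daf-2, 7.03% and 7.58% in the double mutant, and 11.3% and 7.76% in daf-16. In starvation these shares were 23.3% and 19.7% in daf-2, 27.7% and 26.8% in the double mutant, and 27% and 24.2% in daf-16. Of the 14 further antimicrobial peptide genes, 3 rose and 5 fell after UV in daf-2, 1 rose and 0 fell in the double mutant, and 2 rose and 0 fell in daf-16. In starvation 2 rose in each mutant, while 6 fell in daf-2, 6 in the double mutant and 5 in daf-16. Without the 3 arrays that stood apart, 4 rose after UV and 3 fell in starvation in the double mutant. Of the 19 signalling genes, 8 rose and 1 fell after UV in daf-2, 4 rose and 1 fell in the double mutant, and 3 rose and 0 fell in daf-16. Starvation raised 13 of them in each mutant and lowered 1 in daf-2. Of the 10 genes of the DBL-1 route, 7 rose and 1 fell in starved daf-2 and in the starved double mutant, and 9 rose and 1 fell in starved daf-16.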
